A study of Mus musculus with 8 samples.

Results

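Heart muscle cells contract when calcium lets the myosin heads of the thick filament pull on the actin of the thin filament, and the 34 genes described here encode parts of that apparatus, its calcium supply, its pacemaking and junctional channels, and the natriuretic peptides that heart muscle secretes. They were chosen by symbol from a list of sarcomere, calcium handling, ion channel and peptide genes. All 34 were found among the 41709 gene symbols of the deposited table, and 32 of the 34 passed the filter on low values. The libraries come from 8 mouse embryos taken whole at embryonic day 9.5, all from crosses of heterozygous parents over several litters. In 4 of them both Smo copies were wild-type (WT), and in the other 4 both carried the amino acid change K399A (mutant). The product of Smo, Smoothened, sits in the membrane and passes the Hedgehog signal on to the GLI transcription factors. Each embryo was frozen and sequenced as its own library, and litter membership is not labelled. A substitution leaves the level of Smo RNA uninformative about the genotype, so the labels cannot be checked from it. No transgene is named, and no heart was dissected, so every value below is a share of the RNA of an entire embryo. In such samples fewer cells of a type and less RNA per cell cannot be told apart.

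At this stage the mouse heart is a beating, looping tube with an inflow region, a common atrium, an atrioventricular canal, a ventricle and an outflow tract. Atrial and ventricular muscle then begin to use different myosin genes. Myh6 is the heavy chain that comes to mark the atria, with the light chain genes Myl4 and Myl7, although in the early tube these genes are on in the ventricle as well. Myh7, Myl2 and Myl3 are the heavy and light chains of the ventricle. Hcn4 marks the sinus venosus, where the pacemaker forms, and Nppa and Nppb mark the working muscle of the chambers. In this text the first 3 genes are called atrial, the next 3 ventricular, Hcn4 pacemaker and the other 27 shared.

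Heart muscle transcripts were on average more abundant in mutants, but no gene of the whole table passed the test. Mutant was compared with WT by limma on log2(TPM + 1), where TPM is a relative abundance, reads divided by gene length and scaled to the same total in every library. At a Benjamini-Hochberg adjusted p under 0.05 limma called 0 of 13596 genes (0%), members included, with a smallest adjusted p of 0.203. At an unadjusted p under 0.05, limma had 754 genes higher in mutants (5.55% of those tested) and 1088 lower. Of the 32 members tested, 18 were higher at that level and 0 lower. The split over all genes turned with the scaling, to 1220 higher and 939 lower with median-ratio scaling and to 876 and 803 without mitochondrial genes, where 20 and 18 members were higher and 0 lower. Limma voom on whole reads recovered from the TPM values, a fit added once the data had been seen, called 0 of 12915 genes and had 16 of 30 members higher at an unadjusted p under 0.05, against 6.37% of all genes. The median log2 fold change was 0.53 over the 32 members and -0.04 over all genes tested. Of the 32 members 29 were above 0, and of the 13596 genes tested 5124 were. In 14 members every mutant lay above every WT embryo, which 3.63% of all genes tested did. In 0 members every mutant lay below, which 3.82% of all genes did. Ttn, counted among the 18 and the 14, passed the filter mainly through mutants.

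A single embryo carried much of the average. Mutant 1 held the highest value in 31 of the 34 members, WT 3 the lowest in 20, and WT 1 the lowest in 8. The mean of log2(TPM + 1) over 14 sarcomere genes shared by the chambers (Mybpc3, the troponins, Actc1, Actn2, Ttn, Ldb3, Tcap, Csrp3, Ankrd1, Smpx and Myom1) was 4.39, 4.67, 4.17 and 4.66 in WT 1 to 4. In mutants 1 to 4 it was 5.67, 4.71, 4.92 and 4.67. Mutant 1 stood clear of all other embryos, mutant 3 lay above all WT embryos, and mutants 2 and 4 lay close to WT 2 and WT 4. Without mutant 1 the median log2 fold change was 0.34 over the members and -0.06 over all genes, and 24 of 32 members were above 0. In that fit 16 members were higher and 2, Nppa and Nppb, lower at an unadjusted p under 0.05, against 4.91% and 14.2% of all genes, so the lower count is under the background. Without WT 1 or without WT 3 the count of higher members was 11, against 3.84% and 4.42% of all genes. With mutant 1 and WT 3 both left out, a fit chosen after the data had been seen, the members' median was 0.21 and 22 of 32 were above 0.

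**Figure D1:**
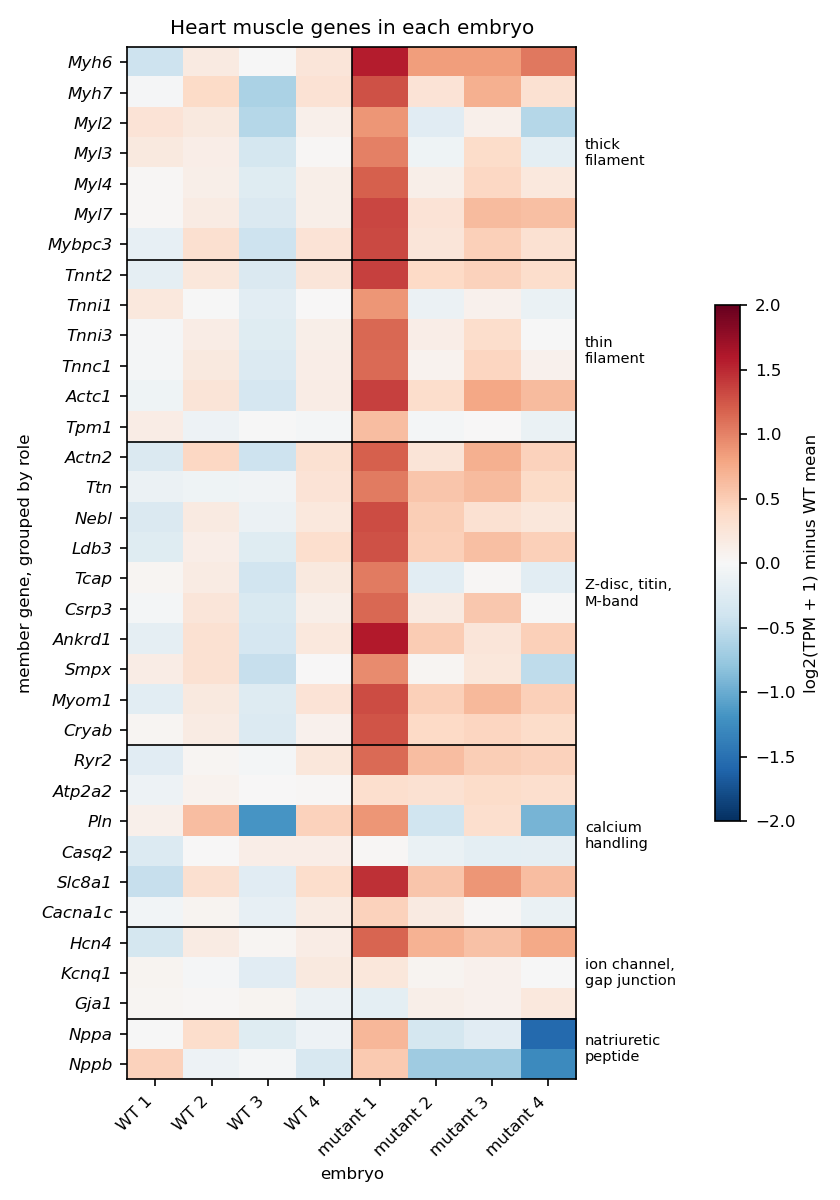
Colour gives log2(TPM + 1) of each of the 34 members (rows, grouped by role) in each of the 8 embryos (columns), minus the mean of the 4 WT embryos. Mutant 1 is the reddest column, highest in 31 of the 34 members, while Nppa and Nppb are below the WT mean in mutants 2, 3 and 4.

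Markers of other tissues stood apart in some embryos too. The summed TPM of 25 yolk sac endoderm genes ran from 175 to 475 in WT and from 375 to 1799 in mutants, with 1799 in mutant 1 and with WT 3 above mutants 3 and 4. Of these genes 10 reached 1 TPM in at most 1 WT embryo and so passed the filter mainly through mutants, and no count of calls over the list is given. All 14 neural genes had a negative log2 fold change, with summed TPM of 653 to 976 in WT and 428 to 755 in mutants, lowest in mutant 1. The summed TPM of 11 decidua and trophoblast markers was 334 in mutant 2, against 13.1 to 71.9 in the other embryos. In a fit that takes the yolk sac mean as a term, also added once the data had been seen, 4 members instead of 18 were higher at an unadjusted p under 0.05 (1.72% of all genes were), and 1, Nppb, was lower (17.0% of all genes were). Libraries of mutants 3 and 4 stood apart in a list drawn up as RNA quality genes, whose summed TPM was 228 and 206 there against 413 to 528 in the other 6 embryos. Gas5 was at 93.4 and 87.8 TPM there against 178 to 237, and Snhg1 at 44.2 and 38.8 against 110.0 to 147. Jun, of the same list, was not low, at 50.6 and 42.2 TPM against 40.1 to 48.0. These values do not measure RNA integrity. Without mutants 3 and 4 the count of higher members was 18, against 9.93% of all genes. The part of these differences in the members' values was not tested.

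The 3 atrial myosin genes were higher in mutants without overlap between the genotypes. So were Hcn4, 10 of the 25 shared members tested (Ttn among them) and 3.63% of all genes tested. Myh6 (chromosome 14, 54941921 to 54966927, GRCm38), the atrial heavy chain, was at 47.6, 72.6, 64.0 and 75.8 TPM in WT 1 to 4 and at 192, 115, 115 and 134 TPM in mutants 1 to 4. The groups did not overlap, and the lowest mutant lay well above the highest WT embryo. The means were 65.0 ± 12.6 TPM in WT and 139 ± 36.7 TPM in mutants (SD, n = 4 each). The log2 fold change of 1.07 ± 0.19 (SE; limma adjusted p = 0.203) was the largest of the members on this scale, although as a ratio of mean TPM Ttn (2.22) and Ryr2 (2.15) were level with Myh6 (2.14). It remained at 0.90 without mutant 1.

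Myl7, the atrial regulatory light chain, was at 539.9, 596, 433 and 575 TPM in WT 1 to 4 and at 1347, 642, 825 and 807 TPM in mutants 1 to 4. The groups did not overlap, with mutant 2 just above WT 2, and the log2 fold change came to 0.71 ± 0.20 (SE; limma adjusted p = 0.281). Myl4, the atrial essential light chain, was at 67.1, 71.9, 55.7 and 72.0 TPM in WT and 154, 72.3, 88.3 and 76.6 TPM in mutants. Mutant 2 barely exceeded WT 4 there, and the log2 fold change of 0.48 was 0.25 without mutant 1.

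The ventricular myosin genes overlapped between the groups. Myh7 (chromosome 14, 54970684 to 54994626), the ventricular heavy chain, lies 3.8 kb from Myh6 on the same strand. It was at 58.1, 76.9, 37.5 and 71.9 TPM in WT 1 to 4 and at 144, 71.7, 96.7 and 73.4 TPM in mutants 1 to 4, and mutants 2 and 4 lay below WT 2, the highest WT embryo. The log2 fold change for Myh7 came to 0.64 ± 0.26 (SE; limma adjusted p = 0.344). Coding sequences of Myh6 and Myh7 are much alike, and how reads that fit both were counted is not given in the sources used here, so the division between them is uncertain.

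Myl2 (chromosome 5, 122100951 to 122113472), the ventricular regulatory light chain, was at 147, 140.0, 81.9 and 130.2 TPM in WT 1 to 4 and at 225, 104, 131 and 81.4 TPM in mutants 1 to 4. The extremes were mutant 1 at the top and mutant 4 at the bottom, with WT 3 close to it. Its log2 fold change of 0.05 had a 95% confidence interval from -0.61 to 0.71, and without mutant 1 the value was -0.23. Myl3, the ventricular essential light chain, was at 52.9 to 77.7 TPM in WT and 59.1 to 137 TPM in mutants (log2 fold change 0.27, or 0.03 without mutant 1). Its exons overlap those of Pth1r, at 29.8 to 49.9 TPM, on the other strand over 95 bases. Mybpc3, the myosin-binding protein that steadies the thick filament, was at 31.9 to 53.8 TPM in WT and 51.1 to 109 TPM in mutants, so that only mutant 2 and mutant 4 fell below the highest WT value.

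**Figure D2:**
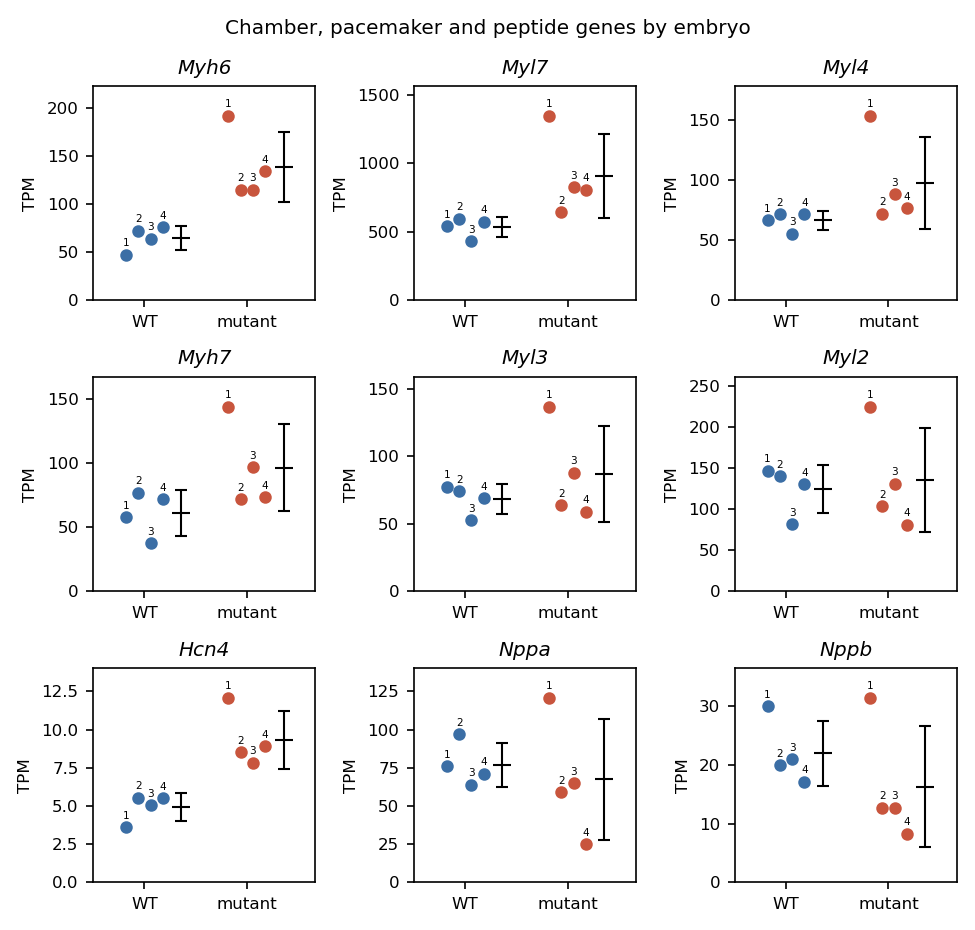
Each panel plots TPM of a chamber, pacemaker or peptide gene in the 4 WT (blue) and 4 mutant (red) embryos, numbered as in the labels, with the mean and SD in black. Myh6, Myl7, Myl4 and Hcn4 do not overlap between genotypes, whereas Myh7, Myl3, Myl2, Nppa and Nppb do.

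Ratios within an embryo show how the chamber genes stood to each other, whatever the total amount of heart RNA. TPM of Myl7 was 3.67, 4.26, 5.29 and 4.42 times that of Myl2 in WT 1 to 4 and 5.98, 6.16, 6.29 and 9.92 times in mutants 1 to 4. Every mutant lay above every WT embryo, and mutant 4 lay far from the rest. The ratio of Myh6 to Myh7 was 0.818, 0.944, 1.71 and 1.06 in WT and 1.33, 1.60, 1.19 and 1.82 in mutants, and WT 3, the embryo of lowest Myh7, fell among the mutants. The ratio of Myl4 to Myl3 ran from 0.864 to 1.05 in WT and from 1.00 to 1.30 in mutants, overlapping at mutant 3. The mean log2 level of the 3 atrial genes exceeded that of the 3 ventricular genes by 0.46, 0.65, 1.07 and 0.76 in WT and by 1.05, 1.15, 0.96 and 1.51 in mutants. The means differed by 0.43 with an overlap at WT 3. No test is given for these ratios, since the genes were chosen with earlier results of these data known.

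The thin filament genes carried the most abundant transcript of the set. Actc1, cardiac alpha actin, was at 613, 780.2, 517 and 721 TPM in WT 1 to 4 and at 1685, 829.7, 1113 and 1009 TPM in mutants 1 to 4. The groups did not overlap, with mutant 2 nearest to WT 2, and the log2 fold change came to 0.78 ± 0.20 (SE; limma adjusted p = 0.281). Coding sequences of actin genes are alike, so some reads may have been divided between them. Acta2, the smooth muscle form that early heart muscle also makes, was at 235 to 290.3 TPM in WT and 309 to 693 TPM in mutants. Tnnt2, the troponin that binds tropomyosin, was at 20.4 to 30.1 TPM in WT and 32.4 to 66.3 TPM in mutants, again without overlap (log2 fold change 0.64, or 0.40 without mutant 1).

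The other troponins overlapped. Tnnc1, the calcium-binding troponin, was at 81.3 to 113 TPM in WT and 104 to 218 TPM in mutants. Tnni3, the cardiac inhibitory troponin that replaces the fetal form Tnni1 as the heart matures, was at 16.6 to 22.1 TPM in WT and 19.6 to 45.3 TPM in mutants. Tnni1 itself was at 86.9, 74.3, 64.6 and 75.8 TPM in WT 1 to 4 and 139, 69.1, 80.0 and 68.4 TPM in mutants 1 to 4, a log2 fold change of 0.18 that was -0.05 without mutant 1. Per TPM, Tnni3 was 0.223 to 0.298 of Tnni1 in WT and 0.286 to 0.327 in mutants, overlapping at WT 2 and mutant 4. Tnni1 lies 25.4 kb from Tnnt2 on chromosome 1. Tpm1, the alpha-tropomyosin gene, is on in many tissues and was at 220.4 to 262 TPM in WT and 215 to 363 TPM in mutants.

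Scaffold genes of the Z-disc and M-band were higher in mutants in 10 of 10 cases by sign and in 7 at an unadjusted limma p under 0.05, with a median log2 fold change of 0.63. Over all genes tested, 5124 of 13596 were higher by sign and 5.55% at that level. The 7 include Ttn, which passed the filter mainly through mutants. Without mutant 1, 8 of the 10 scaffold genes were higher by sign and their median was 0.41. Myom1, which links myosin filaments in the M-band, was at 5.53, 7.58, 5.30 and 8.06 TPM in WT 1 to 4 and at 17.6, 9.47, 10.8 and 9.51 TPM in mutants 1 to 4. Ldb3, a PDZ and LIM protein of the Z-disc, was at 5.11, 6.94, 5.09 and 8.12 TPM in WT and 16.4, 8.98, 9.99 and 8.98 TPM in mutants. In both genes the lowest mutant stood just above WT 4, and the log2 fold changes were 0.73 and 0.71. Exons of Myom1 overlap those of Myl12a on the other strand over 207 bases, and Myl12a was at 143 to 189 TPM. Without knowing whether counting used strand, the part of Myl12a reads in the Myom1 values is uncertain.

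Ttn, the giant spring of the sarcomere, was at 0.763, 0.797, 0.826 and 1.32 TPM in WT and 2.93, 1.81, 1.97 and 1.50 TPM in mutants (log2 fold change 0.65, or 1.06 with a pseudocount of 0.1). It reached 1 TPM in 5 embryos, 4 of them mutants, so that its passing the filter depended on the group in which it was high. Nebl, a nebulin relative that is also on outside the heart, was at 5.49 to 8.14 TPM in WT and 8.20 to 18.4 TPM in mutants, and Cryab, a small heat shock protein, at 31.2 to 42.7 and 49.2 to 92.8 TPM. Exons of Cryab overlap those of Hspb2 on the other strand over 252 bases, and whether counting used strand is not given in the sources used here.

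Actn2, which crosslinks actin at the Z-disc, was at 17.9 to 32.6 TPM in WT and 29.1 to 57.1 TPM in mutants, and Ankrd1, a stretch-responsive repeat protein, at 16.3 to 26.0 and 24.8 to 64.8 TPM. Both overlapped by 1 mutant only, mutant 2 and mutant 3 respectively. Csrp3, a LIM protein, was at 13.8 to 20.6 TPM in WT and 17.2 to 39.5 TPM in mutants. Tcap, the cap of titin, and Smpx, a small protein of muscle, had log2 fold changes of 0.16 and 0.18, which were -0.14 and -0.08 without mutant 1. Tcap rested on 57 to 183 reads per library.

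**Figure D3:**
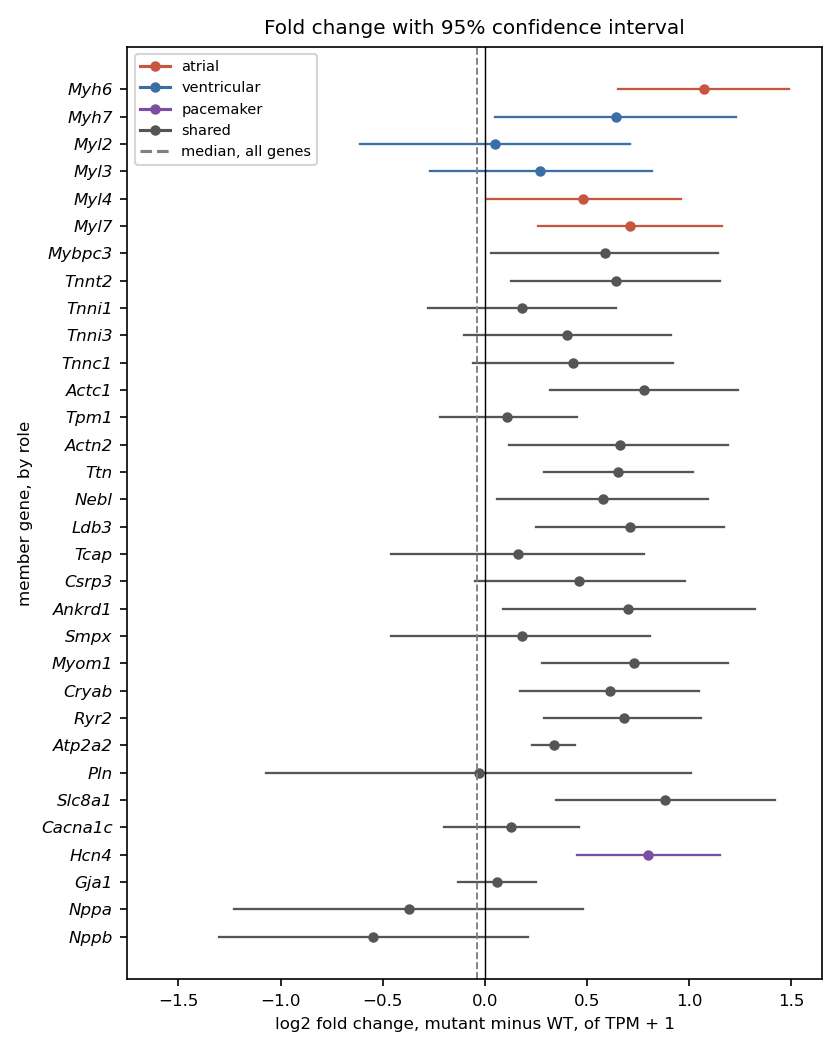
Points give the log2 fold change of TPM + 1, mutant minus WT, of the 32 tested members in order of role, bars the 95% confidence interval from limma, and the dashed line the median of all genes tested (-0.04). Myh6 lies farthest to the right at 1.07, Atp2a2 has a narrow interval around 0.34, and Nppb lies farthest to the left at -0.55.

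The calcium handling genes split. Atp2a2 (chromosome 5, 122453513 to 122502225), the pump that returns calcium to the sarcoplasmic reticulum and is on in most tissues, had the smallest unadjusted p of all 13596 genes tested. It was at 195, 221, 209.6 and 213 TPM in WT 1 to 4 and at 266, 258, 269.6 and 266 TPM in mutants 1 to 4, narrow in both groups and without overlap. Its log2 fold change of 0.34 ± 0.05 (SE; limma adjusted p = 0.203) kept between 0.30 and 0.36 when each embryo was left out. For Atp2a2, unlike the sarcomere genes, mutant 1 was not above the other mutants.

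Slc8a1, the sodium-calcium exchanger that the early heart needs in order to beat, was at 5.95, 10.9, 7.14 and 11.2 TPM in WT 1 to 4 and at 25.1, 13.0, 16.6 and 13.6 TPM in mutants 1 to 4. Ryr2, the calcium release channel, was at 0.844, 1.21, 1.08 and 1.51 TPM in WT and 3.73, 2.28, 2.03 and 1.96 TPM in mutants. In both genes every mutant was above every WT embryo and mutant 1 was the highest, with log2 fold changes of 0.88 ± 0.24 and 0.68 ± 0.17 (SE; limma adjusted p = 0.281 for each). For the low gene Ryr2 the value depends on the scale, at 1.02 with a pseudocount of 0.1 and 1.09 by voom.

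Pln, phospholamban, which restrains the Atp2a2 pump, varied most between embryos of 1 genotype. It was at 4.81, 7.26, 1.37 and 6.44 TPM in WT 1 to 4 and at 8.90, 3.11, 5.83 and 1.83 TPM in mutants 1 to 4, and WT 3 was the lowest of all and mutant 4 next. The log2 fold change was -0.03 with a 95% confidence interval from -1.07 to 1.01, so neither direction is shown. Pln rested on 71 to 459 reads per library. Cacna1c, the pore of the L-type calcium channel, was at 1.09 to 1.63 TPM in WT and 1.13 to 2.22 TPM in mutants. Casq2, cardiac calsequestrin, was at 0.409 to 0.881 TPM in WT and 0.495 to 0.743 TPM in mutants, on 21 to 46 reads per library, and was not tested.

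Hcn4 (chromosome 9, 58823412 to 58863175), the pacemaker channel, was at 3.61, 5.55, 5.06 and 5.51 TPM in WT 1 to 4 and at 12.1, 8.51, 7.83 and 8.92 TPM in mutants 1 to 4. The groups did not overlap, and mutants 2, 3 and 4 lay close together. The log2 fold change came to 0.80 ± 0.16 (SE; limma adjusted p = 0.262) and stayed between 0.68 and 0.87 when each embryo was left out. Gja1, connexin 43, a gap junction protein of many embryonic tissues, was at 80.7 to 90.6 TPM in WT and 76.4 to 101 TPM in mutants, and mutant 1, the highest embryo for most members, was the lowest for Gja1. Kcnq1, a potassium channel, was at 0.545 to 1.05 TPM in WT and 0.795 to 1.11 TPM in mutants and was not tested. Its antisense partner Kcnq1ot1 was at 0.093 to 0.211 TPM, and without strand the reads of the 2 cannot be told apart where they overlap.

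The natriuretic peptides were the members with the lowest log2 fold changes, and for neither is a direction shown. Nppa (chromosome 4, 148000722 to 148002079) was at 75.9, 97.1, 63.9 and 71.1 TPM in WT 1 to 4 and at 121, 59.2, 64.8 and 25.1 TPM in mutants 1 to 4. Mutant 1 was the highest of all embryos and mutant 4 the lowest, while mutants 2 and 3 lay near WT 3. Nppb (chromosome 4, 147985788 to 147987205), which lies 13.5 kb from Nppa, was at 29.9, 19.9, 20.9 and 17.1 TPM in WT and 31.4, 12.7, 12.7 and 8.27 TPM in mutants. There mutants 2, 3 and 4 lay below all WT embryos and mutant 1 above all of them.

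The log2 fold changes were -0.37 ± 0.38 for Nppa and -0.55 ± 0.34 for Nppb (SE; limma adjusted p = 0.646 and 0.46), and both intervals held 0. Without mutant 1 they were -0.72 and -0.90, and without mutant 4 they were 0.02 and -0.30, so the direction for Nppa rested on single embryos. An antisense gene, Gm13054, overlaps 61.5% of the exons of Nppa and was at 0 to 0.536 TPM.

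Most members varied together from embryo to embryo, so each was also set against the mean of the 14 shared sarcomere genes in the same embryo, leaving itself out. This measure was added once the data had been seen and is a description. Of the 32 tested members, 4 had a higher difference from that mean in every mutant than in every WT embryo, Myh6, Actc1, Myom1 and Slc8a1. Myh6 and Actc1 lay above the mean in all embryos, and Myom1 and Slc8a1 below it, less far below in mutants. Over all genes tested 0.0588% did so, but the mean is itself made of members, so the shares cannot be read as a contrast. In the other direction, 6 of the 32 did so, Nppa, Nppb, Myl2, Tnni1, Tcap and Smpx, against 30.8% of all genes, so the count is below the background. The mean itself was 0.52 higher in mutants when Myl2 is set against it, so a gene at 1 level in both groups would be that much lower on this measure.

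Nppa stood 1.87, 1.94, 1.85 and 1.51 log2 units above the sarcomere mean in WT 1 to 4, against 1.25, 1.20, 1.12 and 0.03 in mutants 1 to 4. Nppb stood at 0.56, -0.29, 0.28 and -0.48 in WT and at -0.66, -0.94, -1.14 and -1.46 in mutants. Mutant 1 had the highest TPM of both genes and yet lay below every WT embryo on this measure. Myl2 ranged over 2.20 to 2.82 with wild-type Smo and 1.69 to 2.15 without, and Myh6 over 1.21 to 1.85 and 1.92 to 2.40. Myl4 (1.51 to 1.70 and 1.48 to 1.61) and Myh7 (1.09 to 1.61 and 1.47 to 1.69) overlapped between the groups, and Hcn4 did so at -2.19 to -1.57 and -1.96 to -1.36.

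**Figure D4:**
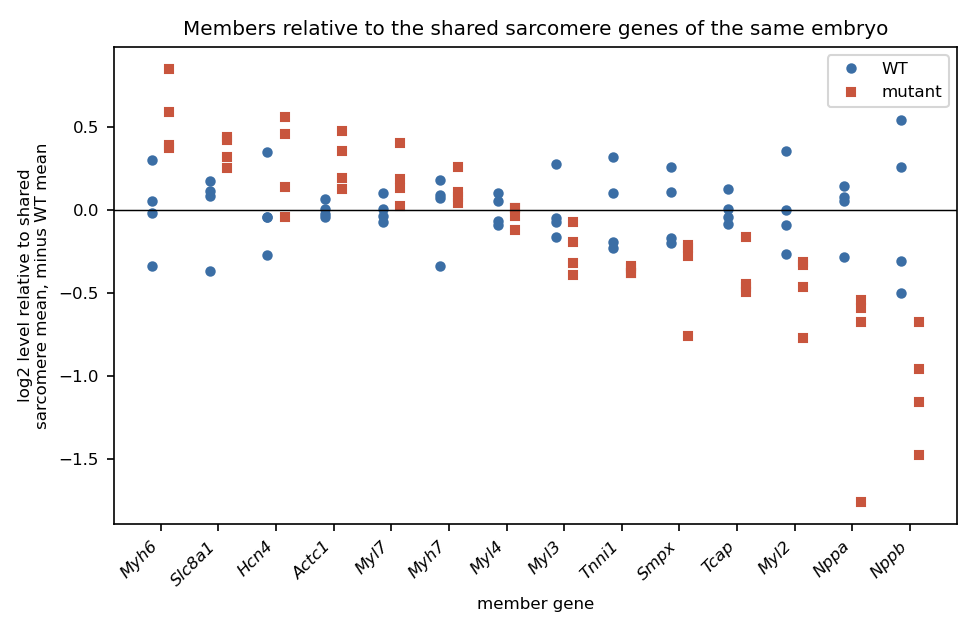
Each point is an embryo, and the vertical axis gives the log2(TPM + 1) of a member minus the mean of the 14 shared sarcomere genes of that embryo, set to 0 at the WT mean. Myh6, Slc8a1 and Actc1 are above WT in all 4 mutants, Hcn4 and Myl7 overlap, and Tnni1, Smpx, Tcap, Myl2, Nppa and Nppb are below WT in all 4 mutants.

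The DNA before the RefSeq start of 3 genes is shown, since Myh6 and Myl7 are atrial genes that did not overlap between the groups, and Nppa is a chamber gene that did. Each is read 5′ to 3′ on the gene's strand from the 250 bases before the RefSeq start (GRCm38.p6), less any bases that GENCODE places in an exon, and capitals mark letters that match a motif. The motifs were AGATAA or TGATAA for GATA factors, the CArG box of SRF and the MEF2 box by their names, CATTCC for TEAD factors (M-CAT), AGGTGT for T-box factors and TNAAGTG for NKX2-5, all on both strands, and TATAAA on the gene's strand only. The regions are chr14:54966642-54966857 (minus strand) for Myh6, chr11:5898783-5899032 (minus strand) for Myl7 and chr4:148000472-148000721 (plus strand) for Nppa. GENCODE M21 starts Myh6 farther upstream, at 54966927, so by that annotation the printed Myh6 region lies inside the gene, outside its exons.
Myh6: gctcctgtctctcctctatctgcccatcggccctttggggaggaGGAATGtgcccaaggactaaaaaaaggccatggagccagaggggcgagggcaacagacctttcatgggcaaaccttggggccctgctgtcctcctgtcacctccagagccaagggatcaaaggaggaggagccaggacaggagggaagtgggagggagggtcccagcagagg
Myl7: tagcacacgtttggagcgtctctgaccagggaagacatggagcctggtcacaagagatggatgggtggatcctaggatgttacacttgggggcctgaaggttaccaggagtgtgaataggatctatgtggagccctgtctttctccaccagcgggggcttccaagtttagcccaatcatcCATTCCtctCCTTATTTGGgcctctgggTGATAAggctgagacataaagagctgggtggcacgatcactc
Nppa: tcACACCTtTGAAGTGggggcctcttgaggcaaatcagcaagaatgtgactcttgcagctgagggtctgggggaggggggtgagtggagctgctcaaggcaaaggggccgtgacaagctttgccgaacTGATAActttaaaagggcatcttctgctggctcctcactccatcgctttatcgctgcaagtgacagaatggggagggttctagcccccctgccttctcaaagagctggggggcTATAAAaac
Myh6 held an M-CAT match alone. Myl7 held a GATA match, a CArG box and an M-CAT match within 70 bases of the start. Nppa held a GATA, a T-box and an NKX2-5 match and a TATAAA. For 22 of the 30 members with a RefSeq start in the table, the bases just after it were found in a GENCODE M21 transcript of the gene. For the rest the annotations may place the start differently. Of the 30, 13 (43.3%) held a GATA match in the 250 bases, against 18.8% of 27025 genes. A CArG box was in 6 of the 30, Myl3, Myl7, Actc1, Nebl, Ldb3 and Myom1, and in 1.62% of all genes. M-CAT letters were in 33.3% of members and 14.4% of all genes, and MEF2 in 6.67% and 0.592%. T-box letters were in 6 of 30 members and 13.6% of all genes, NKX2-5 in 3 of 30 and 11.4%, and TATAAA in 3 of 30 and 8.94%. No motif overlapped another in these 3 sequences. These are counts of letters in a short window and say nothing of binding.

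Other genes of the same apparatus were mostly higher by sign too, with smaller median differences. Of 50 further contractile genes in the table, 40 were tested, 34 were higher by sign, and 15 were higher and 0 lower at an unadjusted limma p under 0.05 (median log2 fold change 0.32). Those with the smallest p were Flnc, filamin C of the Z-disc, at 26.8, 26.8, 28.4 and 29.0 TPM in WT 1 to 4 and 51.9, 34.8, 37.4 and 45.3 TPM in mutants 1 to 4, the chaperone partner Bag3, the myosin chaperone Unc45b and desmin, Des. Unc45b was at 9.36 to 14.2 TPM in WT and 18.0 to 35.2 TPM in mutants. Bag3 was at 30.6 to 33.5 and 36.3 to 47.4 TPM, and Des, which overlapped, at 30.0 to 44.2 and 43.0 to 67.2 TPM.

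Of 48 further calcium and excitation genes, 34 were tested, and 12 were higher and 0 lower at that level (median 0.16). Their smallest p values were those of Kcna5, a potassium channel, at 4.80 to 6.23 TPM in WT and 6.53 to 8.49 TPM in mutants, of the peptide clearance receptor Npr3, of Casq1 and of Hrc, a calcium-binding protein of the sarcoplasmic reticulum. Npr3, also an endocardial marker, was at 5.25 to 6.73 and 7.10 to 9.48 TPM. Casq1 was at 11.7 to 19.0 and 20.5 to 36.6 TPM, far above Casq2 in every embryo. In 8 genes of this list every mutant lay above every WT embryo, and in 1, Hcn2, below (3.63% and 3.82% of all genes). Atp2a1, one of the 12, reached 1 TPM in 6 embryos, every mutant among them, so mutants alone sufficed for it to pass the filter. Of 30 heart transcription factor genes, all tested, 15 were higher and 1 lower at that level (median 0.20), led by Gata5, Gata4, Myocd and Gata6. Gata4 was at 8.53 to 14.9 TPM in WT and 22.4 to 37.2 TPM in mutants (log2 fold change 1.22, limma adjusted p = 0.203). Myocd, the SRF partner myocardin, had means of 3.19 TPM in WT and 6.29 TPM in mutants. Gata4 and Gata6 were highest in mutant 1, as was the yolk sac sum. The part of tissues other than heart in the values of these factors was not tested.

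Several members are also on in skeletal or smooth muscle, so markers of those were read beside them. Of 15 skeletal muscle markers 9 were tested, 2 were higher and 7 lower by sign, 0 at an unadjusted limma p under 0.05, and their summed TPM ran from 62.5 to 89.3 in WT and from 51.7 to 82.2 in mutants. None was at 0 in all embryos, and the most abundant were Myl1, Pax3 and Mylpf. Of 8 smooth muscle markers 7 were tested and 7 were higher by sign, with summed TPM of 472 to 557 in WT and 537 to 1118 in mutants, mostly Acta2 and Tagln, which early heart muscle makes too. Endocardium and endothelium genes were higher by sign in 11 of 12 and at an unadjusted p under 0.05 in 9, with summed TPM of 293 to 345 and 331 to 431. Epicardial genes were higher by sign in 7 of 8 and at that level in 2. Over all genes tested, 5124 of 13596 were higher by sign and 5.55% at that level. The part of these other cell types in the members' values was not tested.

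**Figure D5:**
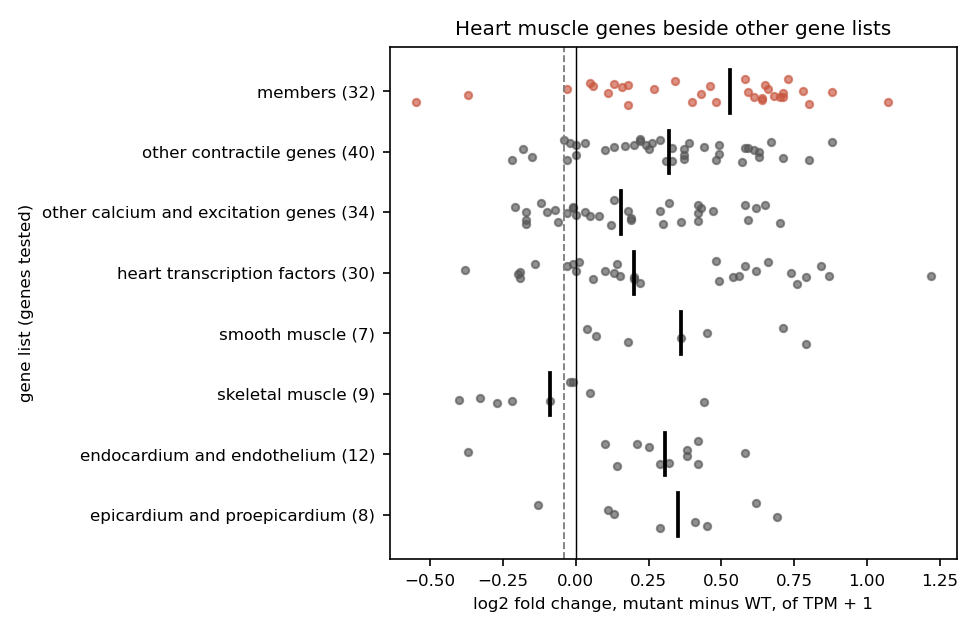
Each point is a tested gene placed by its log2 fold change, mutant minus WT, with the list's median as a black bar and the median of all genes (-0.04) as a dashed line. The members' median of 0.53 lies to the right of those of further contractile genes (0.32), calcium and excitation genes (0.16) and heart transcription factors (0.20), and skeletal muscle markers centre at -0.09.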

How the data were processed

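The authors deposited TPM values per gene symbol for the 8 embryos, and 0 columns went unmatched to a sample. The builds named are GRCm38 and mm10, per the submitters' processing notes. For the aligner, counter, annotation and strand setting, the entry is "not given in the sources used here". Members, lists and tests were chosen with earlier results of these data known. Genes at 1 TPM or more in at least 4 embryos (13596) went into limma 3.58.1 (R 4.3.3), on the log2(TPM + 1) scale, which understates changes of low genes. Genotype was the sole term, the prior variance followed a trend, tests were two-sided, and Benjamini-Hochberg adjustment ran over all genes tested. Beside the members, the text names the 4 genes of smallest p in each other heart list and the most abundant markers. Acta2, Tagln, Gm13054, Hspb2, Kcnq1ot1, Myl12a, Pth1r, Hcn2, Atp2a1 and genes singled out elsewhere were named after their values were seen. The p-values measure the spread between these 8 embryos only. Whole reads were recovered from TPM and GENCODE M21 merged exon lengths (22464 of 22992 genes whole within 0.02 reads, and 32 of 34 members), giving 59.05 to 60.42 M reads per library over these genes. Gene positions are from GENCODE M21. Alternatives covered the pseudocount, filter, scaling, trend, weights, replicate block and embryos left out. The limma step was tested on simulated data.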

Additional observations from a re-analysis of the deposited data

Results flagged for a closer look

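Among 76 groups of 4 embryos, the members and 4 chamber measures in each genotype, 11 held an embryo whose gap to its nearest neighbour, as a share of the group's range, exceeded Dixon's 95% critical value, and chance alone gives about 1 in 20. Of these, 9 were mutant 1, in genes that vary together and so are not independent. In mutant 1, Mybpc3 was at 109 TPM (next mutant 60.4), Tnnt2 at 66.3 (35.1), Tnni1 at 139 (80.0), Tpm1 at 363 (237), Ldb3 at 16.4 (9.99), Tcap at 10.3 (4.55), Ankrd1 at 64.8 (30.0), Myom1 at 17.6 (10.8) and Cryab at 92.8 (51.9). Ttn in WT 4 was at 1.32 TPM against 0.763 to 0.826 in the other WT embryos. The ratio of Myl7 to Myl2 in mutant 4 was 9.92 against 5.98 to 6.29 in the other mutants.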

How the results depend on the processing

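The log2 fold changes of 22 of the 32 members kept their sign in each alternative that tested them, among 21 run (20 were tested in all 21, while Ttn and Ryr2 were not tested at a minimum of 5 TPM, nor Ttn by voom), and 0 members passed an adjusted limma p under 0.05 in any (lowest 0.0823). Leaving out each embryo in turn gave 11 to 21 members at an unadjusted p under 0.05 (lowest without WT 1 or without WT 3, highest without mutant 4), medians of 0.34 to 0.65, 0 to 1 genes called over the whole table (Gm28230 without mutant 2) and an atrial minus ventricular difference of 0.32 to 0.55. At the lowest and highest of these counts 0 members were lower. The shares of all genes higher and lower were 3.84% and 4.68% without WT 1 and 4.42% and 6.32% without WT 3. They were 5.55% and 4.31% without mutant 4. Over all genes 1842 reached an unadjusted p under 0.05, against 3511 with array weights, 3094 without mutant 2 and 1158 without WT 1. Without mutants 3 and 4 limma called 3 genes (Gpx3, Gsn and Prap1), no member among them. With the yolk sac mean as a covariate 5 members, 4 higher and 1 lower, reached an unadjusted p under 0.05, against 1.72% and 17.0% of all genes. The cause of these shifts was not tested. Signs turned as follows. Pln was 0.01 with median-ratio scaling, 0.24 without mutants 3 and 4 and 0.10 with the covariate. Myl2 was -0.05 with array weights, -0.11 with the covariate and -0.42 without mutant 1 and WT 3. Over the fits that leave out 1 embryo, Myl2 ran from -0.23 to 0.26, Pln from -0.42 to 0.28, Tnni1 from -0.05 to 0.29, Tpm1 from -0.06 to 0.20, Tcap from -0.14 to 0.28, Smpx from -0.08 to 0.40 and Nppa from -0.72 to 0.02, the negative ends without mutant 1 (for Pln, without WT 3). Nppa was 0.15 without mutants 3 and 4, where Gja1 was -0.04. With the covariate Tnni1 was -0.02, Tpm1 -0.15, Tcap -0.06, Smpx -0.08 and Cacna1c -0.04. Without mutant 1 and WT 3, chosen like the covariate after seeing the data, Myl3 was -0.09, Tnni1 -0.12, Tpm1 -0.06, Tcap -0.27, Smpx -0.23 and Cacna1c -0.03. In that fit the members' median was 0.21 and 22 of the 32 were above 0. There 13 members were higher and 4, Myl2, Pln, Nppa and Nppb, lower at an unadjusted limma p under 0.05, against 4.18% and 11.9% of all genes, so the lower count is near the background. The numbers are not stated to pair the embryos. Same-numbered embryos correlated at -0.062, 0.04, -0.194 and -0.245 after centring, which cannot exclude a pairing in groups this small. With the replicate block 15 members were higher and 1, Nppb, lower at an unadjusted limma p under 0.05, against 4.60% and 9.37% of all genes, with 0 genes called. Without mutant 1, the log2 fold changes were also over 1.5 times smaller in Mybpc3 (0.34), Tnni3 (0.15), Tnnc1 (0.20), Nebl (0.34), Csrp3 (0.24), Ankrd1 (0.41) and Cryab (0.40). Genes on few reads, such as Casq2 and Kcnq1, are limited by counting error.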
